A study of Rattus norvegicus with 10 samples.

Results

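The genes examined here are 6 early response genes, Egr1, Nr4a1, Nr4a2, Nr4a3, Myc and Dusp1, followed across all 10 libraries of a study of non-steroidal anti-inflammatory drugs (NSAIDs) in rat gastric mucosa. They were taken by Ensembl identifier and chromosome, and all 6 were found among the 32623 genes of each count file. The labels name Sprague Dawley rats, gastric mucosa as the tissue and epithelial cells as the cell type. Each of 5 groups had 2 libraries. Controls carry no treatment label, and a vehicle is not named for any group. The oral doses were 48 mg/kg of indomethacin, 75 mg/kg of diclofenac or 400 mg/kg of aspirin, and tissue was taken at 4 h. In the remaining group, honokiol (a plant lignan, from Magnolia) was injected intraperitoneally at 40 mg/kg, and the same dose of indomethacin followed after 30 min. The time label of that group is 0.5 h, which is the length of the honokiol lead, so its sampling at 4 h rests on the general protocol. A group with honokiol alone was not analysed here, and the ages and sexes of the rats are not labelled.

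Early response genes are transcribed within minutes of a stimulus from factors already present in the cell, without new protein synthesis. Growth factors, injury and stress reach them through MAP kinases, which activate serum response factor and its Ets partners at the CArG box, and through cyclic AMP and calcium, which activate CREB at the cyclic AMP response element (CRE). Egr1 encodes a zinc finger transcription factor, Nr4a1 to Nr4a3 encode orphan nuclear receptors (Nur77, Nurr1 and NOR-1) whose activity is set largely by their amount, Myc encodes a transcription factor of cell growth, and Dusp1 encodes a phosphatase that switches MAP kinases off. In injured gastric epithelium, Egr1 is known as an early transcription factor of the wound response.

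In the coordinates of the deposited files, whose genome build the sources used here do not give, Egr1 (ENSRNOG00000019422) lies on chromosome 18 from 27657628 to 27661429 with 2 exons. Nr4a1 (ENSRNOG00000007607) lies on chromosome 7 from 142905758 to 142920216, Nr4a2 (ENSRNOG00000005600) on the minus strand of chromosome 3 from 43111240 to 43119159, and Nr4a3 (ENSRNOG00000005964) on chromosome 5 from 63781801 to 63821637. Myc (ENSRNOG00000004500) lies on chromosome 7 from 102586313 to 102591240 and Dusp1 (ENSRNOG00000003977) on chromosome 10 from 16970626 to 16973418. No other listed feature lay within the span of any of the 6 genes, on either strand, so overlapping annotation did not touch their counts. Counts covered whole exons of the listed models, from 1936 nt for Dusp1 to 4394 nt for Nr4a3, coding parts and UTRs not being told apart in the files.

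The start-site windows of 4 of the 6 genes are shown because CArG boxes and CREs are the textbook response elements of such genes. Each runs from 250 bases before to 50 bases after the transcription start given by RefSeq on GRCr8. Capitals mark CArG boxes and CRE half-sites (TGACG on either strand). The windows of Egr1 (chr18:26736828-26737127, plus strand), Nr4a1 (chr7:134259888-134260187, plus strand), Nr4a2 (chr3:62104838-62105137, minus strand) and Dusp1 (chr10:17184603-17184902, plus strand) read as follows.
Egr1: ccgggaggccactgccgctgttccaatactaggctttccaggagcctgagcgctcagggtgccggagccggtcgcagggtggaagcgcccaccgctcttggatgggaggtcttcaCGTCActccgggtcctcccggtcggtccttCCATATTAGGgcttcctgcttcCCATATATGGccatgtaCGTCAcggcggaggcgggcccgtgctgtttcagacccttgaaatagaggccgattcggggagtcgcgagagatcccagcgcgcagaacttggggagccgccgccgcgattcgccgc
Nr4a1: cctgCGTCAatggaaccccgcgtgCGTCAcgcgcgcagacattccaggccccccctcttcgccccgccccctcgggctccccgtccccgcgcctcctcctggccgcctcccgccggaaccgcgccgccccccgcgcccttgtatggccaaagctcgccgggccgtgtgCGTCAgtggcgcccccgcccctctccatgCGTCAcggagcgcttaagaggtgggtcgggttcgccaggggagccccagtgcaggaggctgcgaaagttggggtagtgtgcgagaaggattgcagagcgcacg
Nr4a2: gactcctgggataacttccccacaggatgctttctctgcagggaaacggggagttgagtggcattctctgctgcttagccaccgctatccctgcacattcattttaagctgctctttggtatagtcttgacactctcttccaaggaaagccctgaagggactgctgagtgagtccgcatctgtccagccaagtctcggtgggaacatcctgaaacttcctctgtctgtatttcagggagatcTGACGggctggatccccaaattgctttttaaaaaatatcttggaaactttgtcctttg
Dusp1: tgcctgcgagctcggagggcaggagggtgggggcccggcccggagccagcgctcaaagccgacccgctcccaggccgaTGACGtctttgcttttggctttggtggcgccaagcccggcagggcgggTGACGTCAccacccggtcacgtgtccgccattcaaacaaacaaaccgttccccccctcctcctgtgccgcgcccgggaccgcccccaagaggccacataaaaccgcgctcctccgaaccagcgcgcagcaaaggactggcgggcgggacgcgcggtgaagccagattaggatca

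The Egr1 window held 2 CArG boxes, from -105 to -96 and from -83 to -74 relative to the start, and 2 CRE half-sites. Of 33469 RefSeq windows of the same 300 bases, 1.64% held at least 1 CArG box and 0.0209% at least 2. The Nr4a1 window held 4 CRE half-sites, and 0.236% of all windows held that many. Dusp1 held 3 half-sites, of which 2 overlap as the arms of 1 full CRE (TGACGTCA) from -124 to -117. A full CRE was found in 1.83% of all windows and 3 or more half-sites in 1.11%. Nr4a2 held a single half-site, as 21.2% of all windows do with at least 1, and no CArG box. These windows differ in base composition, with 64.7% G and C in Egr1, 72.3% in Nr4a1, 68% in Dusp1 and 48.7% in Nr4a2. The shares of all windows were not matched for base composition, so they do not show how rare a match is among windows of like composition. The Nr4a1 and Nr4a2 windows start inside the RefSeq gene span, so other starts of these genes lie outside them. Of the other motifs searched on both strands, the E-box (CACGTG) was found in Dusp1 from -107 to -102 and in 6.42% of all windows. The Egr site (GCGTGGGCG), the AP-1 site (TGANTCA), the Nr4a site (AAAGGTCA) and the TATA letters (TATAAA) had no match in the 4 windows. A match is a run of letters, and binding was not measured.

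**Figure D1:**
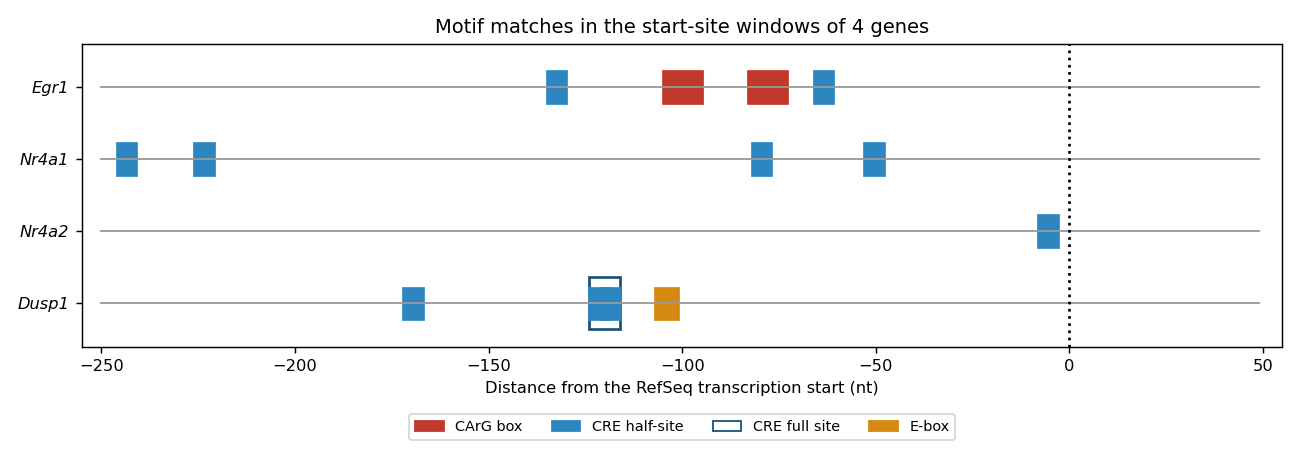
Motif matches in the windows of Egr1, Nr4a1, Nr4a2 and Dusp1, by distance in nucleotides from the RefSeq start (dotted line), with filled boxes for CArG boxes, CRE half-sites and the E-box and an outlined box for the full CRE. The 2 CArG boxes sit in Egr1, the 4 half-sites of Nr4a1 lie in 2 pairs, and Nr4a2 has 1 half-site next to its start.

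Libraries held 23892226 to 44977459 counts. Levels are given as CPM, each library's counts scaled to a common total with TMM factors, and between genes as CPM per kilobase of exon (RPKM). Sampling noise did not account for the differences within a group, where the chi-square per degree of freedom was 38.1 or more. Whether each library is a different animal is not labelled. Control 1, indomethacin 1 and both honokiol libraries had between 2733 and 4438 counts over 7 features of the Y chromosome and the other 6 libraries at most 47, so Y reads were uneven between the groups. Control and indomethacin each had 1 library with Y reads and 1 with at most 2 such counts, which repeats of a single sample would not give. For the honokiol and aspirin groups the files hold no such difference. Diclofenac 1 had 47 such counts and diclofenac 2 had 0, and whether this small difference marks separate samples was not tested. In the honokiol, diclofenac and aspirin groups the p-values may therefore measure a technical spread. For the genes that were called and for Dusp1, values between libraries of the same Y state are given beside the results. In bulk tissue, fewer cells of a type and less RNA per cell cannot be told apart, and because no identifier in the files could be paired with a symbol, the labelled cell type was not checked against markers.

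In the control mucosa, Myc and Dusp1 were the most abundant of the 6 per length and Nr4a3 the least. Control levels per length were 4.62 ± 1.2 RPKM for Myc, 4.14 ± 1.46 for Dusp1, 1.4 ± 0.0552 for Nr4a2, 0.376 ± 0.118 for Egr1, 0.158 ± 0.0455 for Nr4a1 and 0.0365 ± 0.0194 for Nr4a3 (SD, n = 2). The libraries of Myc and Dusp1 overlapped, and each of the other neighbours in that order was separated by both libraries. Egr1 rested on 29 and 43 counts, Nr4a1 on 16 and 10 and Nr4a3 on 7 and 3 in control 1 and 2, so their control levels carry large counting errors. With each NSAID alone Egr1 had the highest mean level per length of the 6, at 10.9 ± 5.56 RPKM with indomethacin, 13.9 ± 7.31 with diclofenac and 11 ± 3.76 with aspirin (SD, n = 2). It did not stand clear of the next gene, Dusp1 with indomethacin (10.3 ± 2.13 RPKM) and Myc with diclofenac (9.35 ± 2.96) and aspirin (9.88 ± 1.63), whose libraries overlapped those of Egr1.

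**Figure D2:**
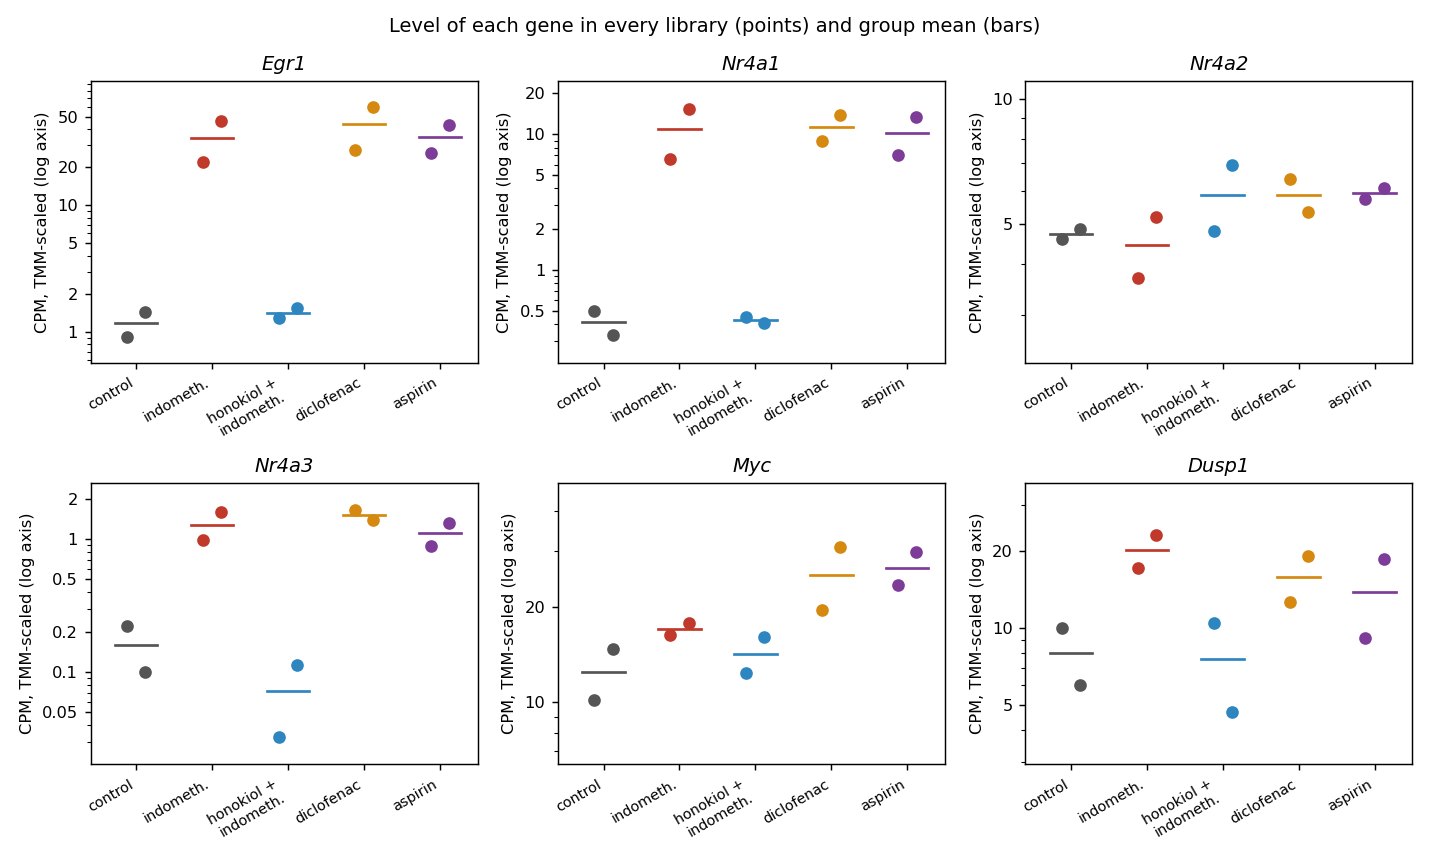
Level of each gene in CPM on a log axis, each panel with its own range, in the 5 groups, with 1 point per library and a bar at the group mean. Egr1, Nr4a1 and Nr4a3 lay lowest in the control and honokiol plus indomethacin libraries and far higher in the 6 libraries of an NSAID alone, while Nr4a2 shows no such gap.

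Egr1 was scarce in the controls and abundant after every NSAID. It had 0.916 and 1.44 CPM in the controls, 21.9 and 46.6 with indomethacin, 27.4 and 59.7 with diclofenac, and 26 and 42.6 with aspirin. All 6 libraries of an NSAID alone lay above all other libraries, and the lowest of them held 706 counts against at most 43 in the others. Egr1 rose 29.1-fold with indomethacin (95% interval 12.2 to 69.4), with a log2 difference of 4.86 ± 0.55 (SE) and an edgeR adjusted p of 0.0084. It rose 37-fold with diclofenac (15.4 to 89.1, log2 5.21 ± 0.56, edgeR adjusted p = 0.0022) and 29.2-fold with aspirin (12.3 to 69.5, log2 4.87 ± 0.55, edgeR adjusted p = 0.0031). By fitted log2 fold change it ranked 44th from the top of 16346 tested genes with indomethacin, 76th with diclofenac and 85th with aspirin. These 3 comparisons share the 2 control libraries. Between libraries of the same Y state the ratio to control was 24 with Y reads and 32.4 without them for indomethacin. Both diclofenac and both aspirin libraries lacked Y reads, and against control 2, which also lacked them, their ratios were 19.1 and 41.6 for diclofenac and 18.1 and 29.7 for aspirin.

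Nr4a1, which is induced by many of the same stimuli, moved with Egr1. It had 0.505 and 0.334 CPM in the controls, 6.64 and 15.4 with indomethacin, 8.96 and 13.8 with diclofenac, and 7.02 and 13.5 with aspirin. Again no library of an NSAID alone overlapped a control. Nr4a1 rose 26-fold with indomethacin (95% interval 11.3 to 59.8, log2 4.70 ± 0.54, edgeR adjusted p = 0.0056), 26.8-fold with diclofenac (11.7 to 61.7, log2 4.75 ± 0.54, edgeR adjusted p = 0.0021) and 24.3-fold with aspirin (10.6 to 55.8, log2 4.60 ± 0.54, edgeR adjusted p = 0.0026). Between libraries of the same Y state the ratio of indomethacin to control was 13.1 with Y reads and 46.2 without. Against control 2 the ratios were 26.8 and 41.4 for diclofenac 1 and 2 and 21 and 40.5 for aspirin 1 and 2.

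Nr4a3, the third orphan receptor, rose from a much lower base. It had 0.221 and 0.1 CPM in the controls, 0.976 and 1.59 with indomethacin, 1.66 and 1.38 with diclofenac, and 0.883 and 1.32 with aspirin, and the drug libraries did not overlap the controls. The rise was 7.8-fold with indomethacin (95% interval 3.38 to 18, log2 2.96 ± 0.55, edgeR adjusted p = 0.034), 9.21-fold with diclofenac (4.01 to 21.2, log2 3.20 ± 0.55, edgeR adjusted p = 0.0076) and 6.76-fold with aspirin (2.91 to 15.7, log2 2.76 ± 0.56, edgeR adjusted p = 0.012). Because the controls held 10 Nr4a3 counts in all, counting error alone gave the indomethacin ratio a 95% Poisson interval from 4.16 to 17.2. Between libraries of the same Y state the Nr4a3 ratio of indomethacin to control was 4.42 with Y reads and 15.9 without. Against control 2 it was 16.5 and 13.8 for diclofenac 1 and 2 and 8.81 and 13.2 for aspirin 1 and 2. In a fit of libraries without Y reads, Nr4a3 was not called with aspirin (log2 3.47, edgeR adjusted p = 0.06).

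Nr4a2 did not pass the test with any NSAID, although it was the most abundant of the 3 receptors in control. It had 4.58 and 4.84 CPM in the controls, 3.68 and 5.19 with indomethacin, 6.39 and 5.33 with diclofenac, and 5.74 and 6.1 with aspirin. Diclofenac and aspirin libraries lay slightly above both controls, and indomethacin libraries lay on either side of them. Its fold change was 0.942 with indomethacin (95% interval 0.643 to 1.38, edgeR adjusted p = 0.94), 1.25 with diclofenac (0.853 to 1.82, 0.45) and 1.26 with aspirin (0.86 to 1.84, 0.36). These upper bounds lie below the lower bounds of Nr4a1 and Nr4a3 with the same drug.

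The make-up of the Nr4a family therefore differed between the groups. Nr4a2 supplied 87.8% ± 4.01 of the summed RPKM of the 3 receptors in control and Nr4a1 9.91% ± 2.8 (SD, n = 2). With indomethacin Nr4a1 supplied 70.4% ± 6.94, with diclofenac 66.5% ± 9.6 and with aspirin 64.4% ± 8.84, and Nr4a2 24.3% ± 6.14, 27.9% ± 8.01 and 31.3% ± 8.68 in the same order. The summed level went from 1.59 ± 0.00973 RPKM in control to 5.75 ± 2.75 with indomethacin, 6.37 ± 1.03 with diclofenac and 5.87 ± 1.87 with aspirin. In all 6 libraries of an NSAID alone Nr4a1 was the leading receptor, at 58.1% or more, and in the other 4 libraries it held at most 11.9%. With honokiol before indomethacin Nr4a2 again held 90.4% ± 2.16. These shares restate the levels above and were not tested.

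**Figure D3:**
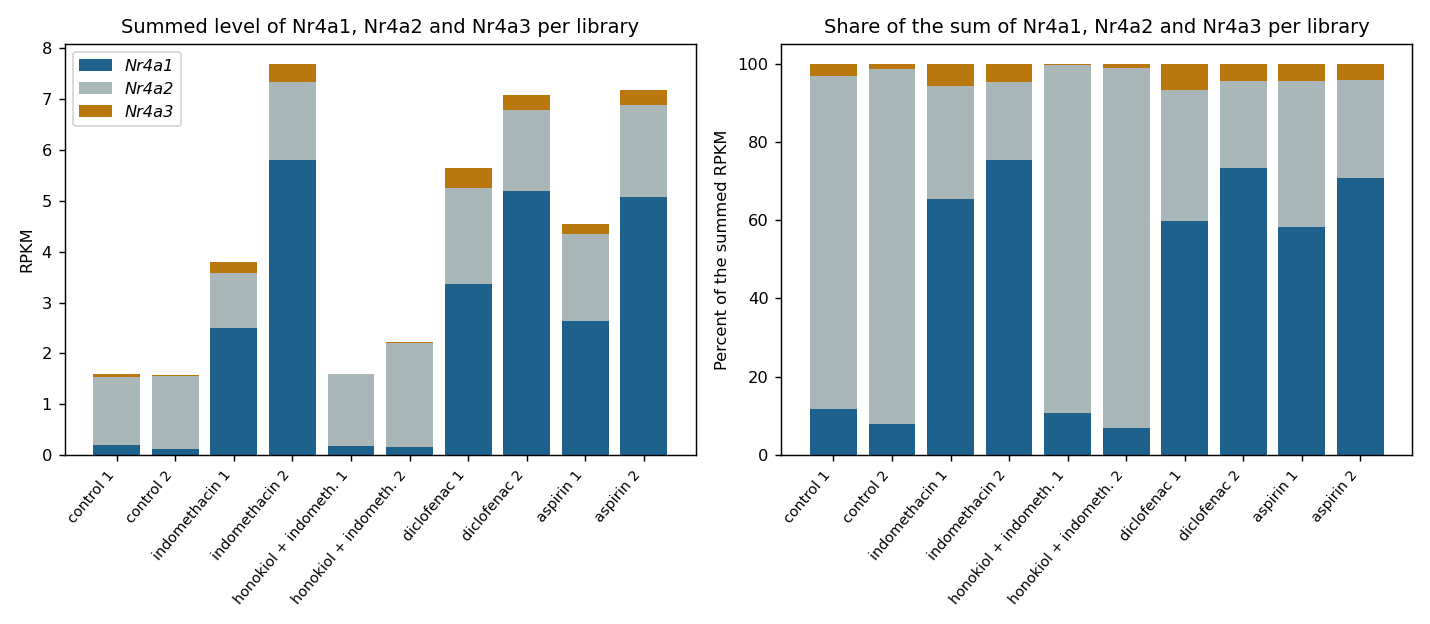
Stacked levels of Nr4a1, Nr4a2 and Nr4a3 in each library, as RPKM on the left and as a percent of their sum on the right. The Nr4a2 band lies between 1.09 and 2.05 RPKM in all libraries, while Nr4a1 fills 58.1% to 75.3% of the sum in the 6 libraries of an NSAID alone and 6.93% to 11.9% in the other 4.

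Myc, which drives ribosome production and cell growth, rose about 2-fold with diclofenac and aspirin. It had 10.2 and 14.7 CPM in the controls, 16.3 and 17.8 with indomethacin, 19.5 and 30.8 with diclofenac, and 23.5 and 29.7 with aspirin. Each drug library lay above both controls, by a small margin for indomethacin. The fold change was 2.02 with diclofenac (95% interval 1.35 to 3.03, log2 1.02 ± 0.27, edgeR adjusted p = 0.041) and 2.14 with aspirin (1.43 to 3.21, log2 1.10 ± 0.27, edgeR adjusted p = 0.022). With indomethacin it was 1.37 and did not pass the test (0.915 to 2.05, edgeR adjusted p = 0.64). Against control 2 the Myc ratio was 1.33 and 2.09 for diclofenac 1 and 2 and 1.6 and 2.02 for aspirin 1 and 2. Neither Myc call held with a term for Y reads (edgeR adjusted p = 0.13 with diclofenac and 0.077 with aspirin) or without control 1 (0.22 and 0.13). The log2 fold changes were then 0.87 and 0.95 with the Y term and 0.81 and 0.89 without control 1. The diclofenac call also ended when the 2 groups were fitted alone (0.096), without diclofenac 2 (log2 0.65, edgeR adjusted p = 0.23) and without indomethacin 1, indomethacin 2 or honokiol plus indomethacin 1 (0.055, 0.059 and 0.054), and the aspirin call without aspirin 1 or 2 (0.061 and 0.062).

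Dusp1, the phosphatase of this set, had 10 and 6.01 CPM in the controls, 17.1 and 22.9 with indomethacin, 12.6 and 19 with diclofenac, and 9.16 and 18.5 with aspirin. Indomethacin and diclofenac libraries lay above both controls, and aspirin 1 lay between the controls. Its fold change was 2.5 with indomethacin (95% interval 1.22 to 5.12, unadjusted p = 0.018 by edgeR's quasi-likelihood test, edgeR adjusted p = 0.33), 1.97 with diclofenac (0.963 to 4.02, 0.21 adjusted) and 1.73 with aspirin (0.848 to 3.54, 0.24 adjusted). None passed the threshold. Between libraries of the same Y state the Dusp1 ratio of indomethacin to control was 1.71 with Y reads and 3.82 without, and against control 2 it was 2.09 and 3.16 for diclofenac 1 and 2 and 1.52 and 3.08 for aspirin 1 and 2. Dusp1 did pass when low-count genes were not filtered out (edgeR adjusted p = 1.3e-05, 0.0016 and 0.012, at log2 fold changes of 1.34, 1.01 and 0.82) and, with indomethacin, when the 2 groups were fitted alone (0.031). The unfiltered fit gave Egr1 with indomethacin an edgeR adjusted p of 9.2e-53 at log2 4.89, beside 0.0084 at 4.86 with the filter. Its p-values are therefore not on the scale of the filtered fit and are weak evidence for Dusp1.

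Counted together, 3 of the 6 genes rose with indomethacin, where 0.752% of the 16346 tested genes rose. With diclofenac 4 rose against 4.76% of all genes, and with aspirin 4 rose against 9.5%. None of the 6 fell, where 0.0245% of all genes fell with indomethacin, 3.11% with diclofenac and 8.26% with aspirin. The median log2 fold change of the 6 was 2.14 with indomethacin, 2.11 with diclofenac and 1.93 with aspirin, beside -0.02, -0.01 and -0.00 over all tested genes. All libraries of the drug lay above both controls for 5 of the 6 genes with indomethacin, 6 with diclofenac and 5 with aspirin. The same separation was met by 20.1%, 27% and 30.4% of all genes, so it says little by itself for Nr4a2 or Myc. In 4 of the 6 genes, Egr1, Nr4a1, Nr4a3 and Myc, the 6 libraries of an NSAID alone all lay above the 4 others, as did 5.79% of all genes. Without control 1 or control 2 none of the 6 was called with indomethacin, at log2 fold changes for Egr1 of 4.59 and 5.24, for Nr4a1 of 5.05 and 4.46 and for Nr4a3 of 3.66 and 2.54, and the edgeR adjusted p lay between 0.078 and 0.23. Nr4a3 with indomethacin was also not called with a term for Y reads (edgeR adjusted p = 0.051) or without indomethacin 2 (0.22).

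**Figure D4:**
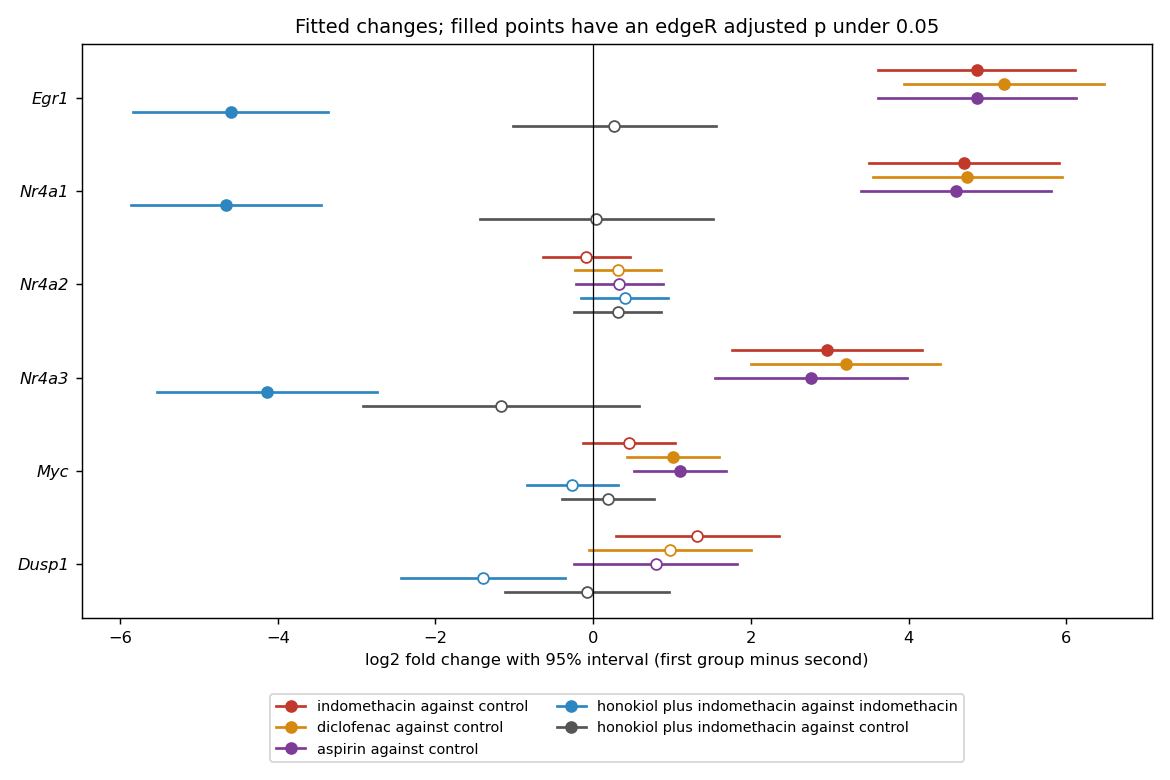
Fitted log2 fold changes of the 6 genes in 5 comparisons, with 95% intervals and with filled points where the edgeR adjusted p was under 0.05. Egr1, Nr4a1 and Nr4a3 lie far to the right for the 3 NSAIDs and far to the left for honokiol plus indomethacin against indomethacin, and the intervals of honokiol plus indomethacin against control cross 0 for all 6.

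The honokiol plus indomethacin group was then compared with indomethacin alone. Because honokiol alone was not analysed, its own effect on these genes cannot be told apart from a changed response to indomethacin. The time labels also differ, at 0.5 h and 4 h, and sampling of the honokiol group at 4 h rests on the general protocol. Egr1, Nr4a1 and Nr4a3 were at control levels in both honokiol libraries. Egr1 had 1.29 and 1.53 CPM, Nr4a1 0.453 and 0.411 and Nr4a3 0.0324 and 0.112, the last from 1 and 3 counts. None of these values came near the lowest indomethacin library, which had 21.9, 6.64 and 0.976 CPM. Egr1 was 24.2-fold lower than with indomethacin alone (log2 -4.60 ± 0.54, edgeR adjusted p = 0.018), Nr4a1 25.3-fold lower (log2 -4.66 ± 0.54, edgeR adjusted p = 0.015) and Nr4a3 17.5-fold lower (log2 -4.13 ± 0.64, edgeR adjusted p = 0.023). For Nr4a3 the ratio of scaled counts, 4 against 97, was 0.0535 with a 95% Poisson interval from 0.0143 to 0.142. Both honokiol libraries held Y reads, as did indomethacin 1, and against that library alone Egr1 was 16.9 and 14.3 times lower and Nr4a1 14.6 and 16.1 times lower. Nr4a3 was 30.1 and 8.7 times lower than in that library, on 1 and 3 counts.

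Of the other 3 genes, Dusp1 had 10.4 and 4.71 CPM with honokiol before indomethacin, both below the 17.1 and 22.9 of indomethacin alone. Its log2 difference was -1.40 ± 0.46 and did not pass (SE, edgeR adjusted p = 0.38), though DESeq2 called it (adjusted p = 0.046), as did edgeR with no low-count filter (log2 -1.42, adjusted p = 3.9e-06). The unfiltered fit gave Egr1 in this comparison an edgeR adjusted p of 4.3e-48, beside 0.018 with the filter, so its call of Dusp1 is weak evidence. Against indomethacin 1 alone, Dusp1 was 1.64 and 3.63 times lower in the honokiol libraries. Myc had 12.3 and 16 CPM, just below indomethacin, at a log2 difference of -0.26 ± 0.27, and Nr4a2 had 4.79 and 6.92 CPM at 0.40 ± 0.25 (SE, edgeR adjusted p = 0.83 and 0.69). Thus 3 of the 6 genes were lower, against 0.3% of all tested genes, and 0 were higher, against 0.0428%. For 5 of the 6, all but Nr4a2, both honokiol libraries lay below both indomethacin libraries, as for 23.6% of all genes. The median log2 difference of the 6 was -2.77, beside -0.02 over all genes. Without either honokiol library none of the 6 was called, with log2 differences of Egr1 at -4.48 and -4.73, of Nr4a1 at -4.74 and -4.60 and of Nr4a3 at -3.48 and -5.17 (edgeR adjusted p from 0.17 to 0.25). Without honokiol plus indomethacin 1, 0 of all tested genes were called, and without honokiol plus indomethacin 2, 3 were. Nr4a3 was also not called with a term for Y reads (0.075) or without indomethacin 2 (0.11).

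Against control, the honokiol plus indomethacin libraries gave 0 calls among the 6 genes by edgeR and by DESeq2, and 0 at an unadjusted p under 0.05 by edgeR's quasi-likelihood test. No gene of all 16346 was called by edgeR either (0%), while DESeq2 called 16. The unadjusted threshold was met by 816 of the 16346 genes, so its absence among 6 genes says little. DESeq2 gave Nr4a3 no adjusted p here, so that gene could not be called by it. The fold change was 1.2 for Egr1 (95% interval 0.493 to 2.93), 1.03 for Nr4a1 (0.369 to 2.87), 1.24 for Nr4a2 (0.847 to 1.82), 0.445 for Nr4a3 (0.133 to 1.49), 1.14 for Myc (0.761 to 1.71) and 0.947 for Dusp1 (0.46 to 1.95). The libraries of both groups overlapped for all 6, whereas 18.3% of all genes had both honokiol libraries above the controls and 19.4% below. The intervals of Egr1 and Nr4a1 leave room for a 2-fold difference, and those of Nr4a3 and Dusp1 for a 2-fold fall. For Egr1, Nr4a1 and Nr4a3 they end far below the rises with indomethacin alone (29.1-fold, 26-fold and 7.8-fold). For Dusp1 the interval ends closer to its uncalled 2.5-fold change with indomethacin, and for Myc it includes the uncalled 1.37-fold change.

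The 3 drugs were set against each other at the given doses, which differ, so the values stand side by side. None of the 6 genes was called by edgeR in any of the 3 pairs, nor by DESeq2. Over all genes edgeR called 0.0184% between indomethacin and diclofenac, 0.0184% between indomethacin and aspirin and 0% between diclofenac and aspirin. DESeq2 called 160, 457 and 7 genes in the same order. For Egr1 the ratio of indomethacin to diclofenac was 0.786 (95% interval 0.392 to 1.58), that of indomethacin to aspirin 0.998 (0.497 to 2) and that of diclofenac to aspirin 1.27 (0.632 to 2.55). For Nr4a1 the ratios were 0.97 (0.515 to 1.82), 1.07 (0.568 to 2.02) and 1.1 (0.586 to 2.08). Differences between drugs that lie inside these intervals were not detectable with 2 libraries a group. Myc was the only one of the 6 with an unadjusted p under 0.05 in a drug pair, indomethacin against aspirin. In that pair 3283 of all 16346 tested genes also had one, so it says little by itself. It was lower with indomethacin than with aspirin, at a ratio of 0.64 (0.429 to 0.955, unadjusted p = 0.032 by edgeR's quasi-likelihood test, edgeR adjusted p = 0.21), and its ratio to diclofenac was 0.677 (0.454 to 1.01). Files of the aspirin and diclofenac libraries end in 2 empty lines and the other 6 in 1. If that reflects separate handling, it cannot be told apart from these 2 drugs in any contrast with control or indomethacin.

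Across the 10 libraries Egr1 and Nr4a1 had the highest Pearson's r of log2 CPM of the pairs among the 6 genes, at 0.991. By Spearman's rho, Egr1 and Myc were higher (0.915) than Egr1 and Nr4a1 (0.879). Both are descriptions over libraries that fall into a low and a high cluster. Nr4a3 followed both, at r = 0.947 with Egr1 and 0.966 with Nr4a1. Myc had r = 0.833 and Dusp1 r = 0.778 with Egr1, and Nr4a2 had 0.134. Nr4a1 reads as a percent of Egr1 plus Nr4a1 reads lay between 18.8% (95% Clopper-Pearson interval 17.4 to 20.2) in diclofenac 2 and 24.9% (23.2 to 26.7) in indomethacin 2 over the 6 libraries of an NSAID alone. In the honokiol libraries it was 25.9% (15 to 39.7) and 21.2% (11.1 to 34.7), and in the controls 35.6% (21.9 to 51.2) and 18.9% (9.44 to 32). The interval of diclofenac 2 lies below those of both indomethacin libraries, of aspirin 2 (22.4 to 25.8) and of diclofenac 1 (22.5 to 26.8). This share thus differed beyond counting error, the only error these intervals cover, between libraries of the same drug as well. A difference between drugs was not tested.

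**Figure D5:**
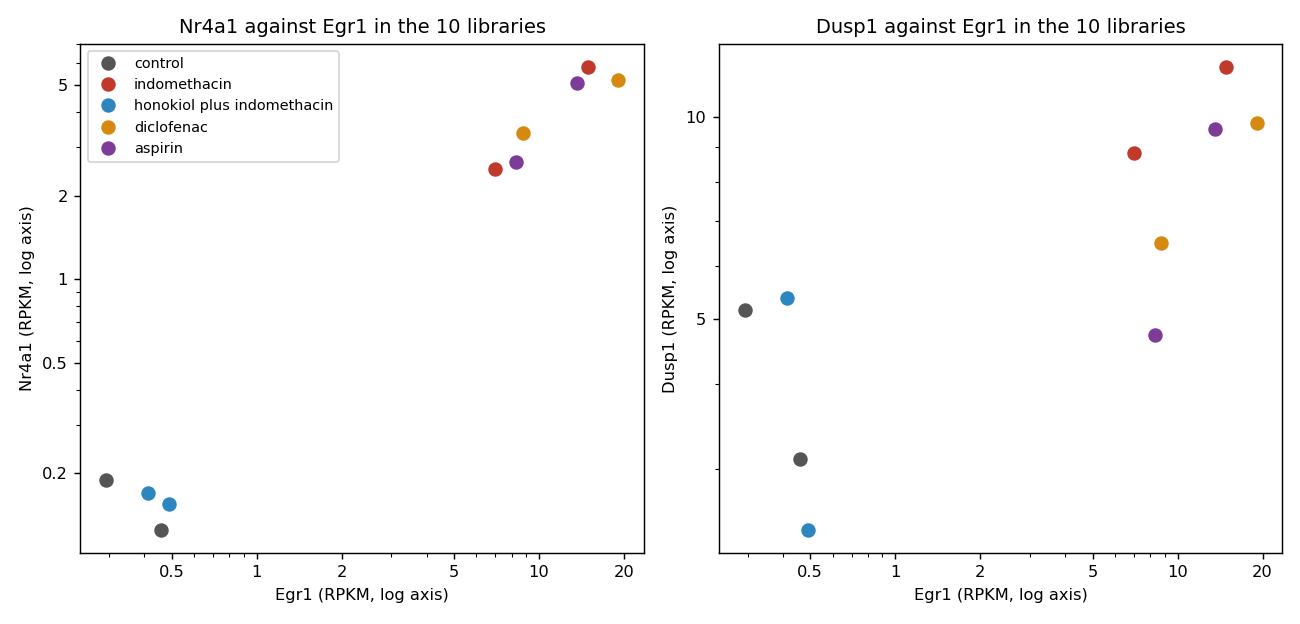
Nr4a1 (left) and Dusp1 (right) against Egr1 in RPKM on log axes, with 1 point per library coloured by group. Nr4a1 follows Egr1 closely from the 4 low libraries to the 6 libraries of an NSAID alone, whereas Dusp1 spans a smaller range and aspirin 1, at 4.73 RPKM, lies below control 1, at 5.17 RPKM.

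Within each NSAID the libraries were not alike. The same library of each pair, numbered 2, held more Egr1, Nr4a1, Myc and Dusp1 with all 3 drugs. It held more Nr4a2 and Nr4a3 with indomethacin and aspirin and less with diclofenac. The share of all tested genes with the same order was not counted, so a shift of whole libraries was not tested. For Egr1 that library had 2.12 times the level of the other with indomethacin, 2.18 with diclofenac and 1.64 with aspirin, and for Nr4a1 2.33, 1.54 and 1.92 times. Dusp1 in aspirin had a ratio of 2.02. Nr4a2 differed less, at 1.41, 0.834 and 1.06, and Nr4a3 had 1.63, 0.834 and 1.5 in the same order of drugs. The biological coefficient of variation fitted by edgeR was 0.323 for Egr1, 0.309 for Nr4a1, 0.319 for Dusp1, 0.286 for Nr4a3, 0.204 for Myc and 0.191 for Nr4a2, beside 0.234 common to all genes.

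By the rule for likeness, 2 genes outside the set had the highest mean correlation with its members over the 10 libraries, among the 11363 genes whose average log2 CPM was 1 or more. ENSRNOG00000008965, a 4-exon gene on chromosome 7 from 36495480 to 36499784, had a mean r of 0.791 with the 6 genes and r = 0.959 with Egr1. Its r was lowest with Nr4a2, at 0.325, and next with Dusp1, at 0.69. Its log2 fold change with indomethacin was 1.79 (edgeR adjusted p = 0.04). For honokiol plus indomethacin against indomethacin it was -1.39, and that was not called (edgeR adjusted p = 0.16). ENSRNOG00000014350, a 5-exon gene on chromosome 2 from 251529354 to 251532312, had a mean r of 0.789 and reached r = 0.989 with Egr1 and 0.992 with Nr4a1. Its r was 0.961 with Nr4a3, 0.813 with Myc, 0.804 with Dusp1 and 0.173 with Nr4a2. It had 2.21 and 2.44 CPM in the controls, 15.6 and 41.9 with indomethacin, 32.5 and 41.2 with diclofenac, 19.7 and 45.5 with aspirin, and 2.23 and 2.13 with honokiol before indomethacin. The files pair neither identifier with a name.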

How the data were processed

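The authors deposited whole-number counts per gene, 1 table per library, with the columns that featureCounts writes, per the file headers. The libraries were stranded, paired-end and free of most ribosomal RNA, per the labels' protocols. The submitters' processing notes name HISAT2 2.1.0, cutadapt 1.16, featureCounts, SAMtools and DESeq2. The sources used here do not give the genome build or strand setting. Groups and replicate numbers came from the sample titles.

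Counts of all 10 libraries entered 1 edgeR 4.0.16 quasi-likelihood fit (R 4.3.3, TMM factors, filterByExpr with minimum count 10 and minimum total 15, robust, group as the only term, 5 residual degrees of freedom). Of 32623 genes 16346 were tested, the 6 named ones among them, and calls required a p adjusted by Benjamini-Hochberg to lie under 0.05. Its standard error is the fitted log2 change divided by the square root of F, and 95% intervals use the fitted degrees of freedom. The fit was tested on simulated counts. DESeq2 1.42.0 was an alternative. All 6 genes are named, and genes most alike were the 2 with the highest mean Pearson correlation. Lists of pathway and cell type genes could not be applied, since 0 of the 32623 identifiers matched a symbol in the reference table, and gene names are those of the selection. In that table the 6 symbols lie on the same chromosomes as in the files. Start-site sequences are from RefSeq on GRCr8, and the sequence table used here had a window for 4 of the 6 genes. The genes, tests and lists were chosen with earlier results of these data known. Alternatives were RLE factors, leaving out mitochondrial features, other low-count filters, DESeq2, a replicate block, a term for Y reads, fits of 2 groups alone, an added 2-fold threshold and leaving out each library. Fits within libraries of 1 Y state were added after the data were seen.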

Additional observations from a re-analysis of the deposited data

How the results depend on the processing

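The counts of called genes among the 6 were 3, 4 and 4 for indomethacin, diclofenac and aspirin against control, 3 for honokiol plus indomethacin against indomethacin, and 0 in the other 4 comparisons. RLE factors, leaving out mitochondrial features, other low-count filters, DESeq2, the Y-read term, fits of 2 groups alone and the 2-fold threshold kept every count within 1.5 times these values. Leaving out single libraries gave 0 to 3 for indomethacin, 3 to 4 for diclofenac and for aspirin, and 0 to 3 for honokiol plus indomethacin against indomethacin. Over all tested genes, edgeR called 127, 1286, 2903 and 56 in those 4 comparisons, DESeq2 376, 1792, 3183 and 243, and edgeR with no low-count filter 834, 2650, 4198 and 699. Without control 1 or control 2, 21 genes and 1 gene were called with indomethacin. Without control 1, 319 were called with diclofenac and 467 with aspirin. For honokiol plus indomethacin against control, edgeR with no low-count filter called 153 genes, none of the 6 among them. Among libraries without Y reads, where control and indomethacin keep 1 library each, whose spread is taken from the other groups, it was 1 for indomethacin, where Egr1 (edgeR adjusted p = 0.051) and Nr4a3 (0.1) lost their calls, and 2 for aspirin. Among libraries with Y reads it was 2 for indomethacin and 2 for honokiol plus indomethacin against indomethacin, where Nr4a3 lost its call (edgeR adjusted p = 0.43 and 0.091). These fits hold fewer libraries. No fitted change of a called gene changed sign. Of 965 single-gene values under the alternatives, 887 kept direction and side of the threshold, 34 lost the call, 6 gained it and 38 uncalled values changed sign.

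The replicate block left the counts at 3, 4, 4 and 3, and at 0 in the other 4. Deviations of same-numbered libraries correlated from -0.26 to 0.30, over 0.1 in 4 of 10 pairs of groups and below 0 in 6. Those over 0.1 lay among control, indomethacin and honokiol plus indomethacin (0.13, 0.30 and 0.14) and between aspirin and diclofenac (0.22). Those below 0 lay between these sets of groups, so the numbers do not pair the libraries across all groups. Whether they pair libraries within a set was not tested. The low counts of Nr4a3, and of Egr1 and Nr4a1 in the controls, limit the precision of their fold changes.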
